A study of Homo sapiens with 6 samples.

Results

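The genes described here are 10 textbook outputs of canonical Wnt signalling in the gut: AXIN2, NKD1, NOTUM, RNF43, ZNRF3, DKK1 and DKK4, which act back on the pathway as antagonists, and LGR5, ASCL2 and TNFRSF19 (also called TROY), which are expressed in stem cells at the crypt base. They were chosen by symbol from the 22258 gene symbols of the deposited table, and all 10 have a row in it. The cells were SW480, an established human colon cancer line with truncated APC. The study compared 3 samples labelled as ALDH1B1 knockdown with 3 control samples labelled SCR and wild type, all 6 untreated, with replicates numbered 4, 5 and 6 in each group. ALDH1B1 encodes a mitochondrial aldehyde dehydrogenase. The sources used here do not say how the knockdown was made, whether the cells are 1 clone or whether the replicates are separate cultures. The p-values therefore speak of the spread among these 6 samples, some or all of which may be technical.

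In canonical Wnt signalling, ligands bind Frizzled and LRP receptors, the destruction complex of APC, axin, GSK3 and casein kinase 1 is inhibited, and beta-catenin accumulates and activates genes together with TCF/LEF factors. Several of the activated genes encode inhibitors that act at different steps: in the destruction complex (AXIN2), on dishevelled (NKD1), on the ligand (NOTUM), on the receptors (RNF43, ZNRF3) and on the co-receptor (DKK1, DKK4). In the normal intestine this programme is active at the crypt base, where LGR5, ASCL2 and TNFRSF19 mark or maintain stem cells. In lines with truncated APC, beta-catenin is stabilised without a ligand.

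Of the 10 genes, 9 had a mean of at least 0.688 RPM (reads of the gene scaled to the depth of the library) and were tested. In the knockdown samples 5 of them rose (NOTUM, TNFRSF19, DKK4, RNF43 and NKD1), 2 fell (DKK1 and AXIN2), and ZNRF3 and ASCL2 did not pass the test. The threshold was an adjusted p of 0.05 by limma, with p-values adjusted by the method of Benjamini and Hochberg over 15496 genes, and the words rose and fell are kept for genes past it. By the same rule 41.8% of all tested genes changed, 22.6% upward and 19.2% downward. The median log2 fold change was 0.27 over the 9 genes and 0.00 over all tested genes (0.00067 before rounding). These are bulk RNA samples, in which fewer cells with a transcript and less of it per cell cannot be told apart. No value or test of the comparison was used to choose the genes, but they were chosen with earlier results of these data known.

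The 6 libraries had depths of about 20360000 to 28590000 reads, estimated from the smallest step between values. ALDH1B1 itself went from a mean of 36.8 ± 2.76 RPM to 21.2 ± 1.74 (SD, 3 samples a group here and below), and fell by 0.80 on the log2 scale (SE 0.0926, limma adjusted p = 2.37e-07), and every knockdown sample was below every control sample. Its exact two-sided permutation p was 0.1, the smallest that 3 against 3 samples allow. Of 12 colon epithelial markers 10 were listed, led by the keratins KRT8 and KRT18 with means of 2702 and 1881 RPM in the control, while KRT20, of differentiated colonocytes, was at 0.107 RPM. Of the 8 tested, 4 rose and 1 fell, beside 22.6% and 19.2% of all tested genes. The log2 fold changes were 1.98 for the adhesion protein CDH1, 1.90 for the brush border protein VIL1, 0.90 for the surface antigen EPCAM, 0.69 for the hepatocyte and gut factor HNF4A and -0.76 for the intestinal factor CDX2. The part of these markers in the results below was not tested. Markers of fibroblasts, leukocytes and endothelium summed to 1.57 to 7.03 RPM per list and sample. In each of these 3 lists 1 gene passed the filter on low values, and of those the macrophage marker CD68 fell. Its level was low, with means of 1.17 RPM in the control and 0.311 in the knockdown, on about 5 to 32 reads per sample. Control replicate 6 was the lowest control sample for 8 of the 9 tested genes and for 69% of all tested genes. Listed genes took 65.1% of its reads, against 70.3% and 71.1% in control replicates 4 and 5 and 67.2% to 70.7% in the knockdown samples. Its scaling factor by median of ratios was the lowest of the 6, at 0.934. The fold change of each tested gene without control replicate 6 is given below. Messenger RNAs of the mitochondrial genome took 3.60% to 4.31% of reads in control samples and 6.34% to 6.43% in knockdown samples, and their part in the results was not tested beyond a rescaling without them, which is given where it changed a call.

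The promoters shown here belong to genes with opposite changes, DKK1, the one with the largest fold change, and RNF43. The RefSeq promoter table (GRCh38.p14) matched 3 of the 10 genes by symbol: DKK1, RNF43 and TNFRSF19, the last 2 with 2 starts each. AXIN2, NKD1, NOTUM, ZNRF3, DKK4, LGR5 and ASCL2 were not matched. The 250 bases before each start were searched on both strands for the core of the TCF/LEF motif, which was CTTTGAA in the first form searched, CTTTGAT in the second form searched, CTTTGTA in the third form searched and CTTTGTT in the last, and no match overlapped another in these windows. The sequences read 5′ to 3′ in the direction of the gene, with each match in capitals.
DKK1 (chr10:52314031-52314280, plus strand): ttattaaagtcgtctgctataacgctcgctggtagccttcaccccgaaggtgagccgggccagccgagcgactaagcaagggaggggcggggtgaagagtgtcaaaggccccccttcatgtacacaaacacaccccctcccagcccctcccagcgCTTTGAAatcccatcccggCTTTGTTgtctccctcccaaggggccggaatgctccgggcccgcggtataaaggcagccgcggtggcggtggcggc
RNF43 (chr17:58417535-58417784, minus strand): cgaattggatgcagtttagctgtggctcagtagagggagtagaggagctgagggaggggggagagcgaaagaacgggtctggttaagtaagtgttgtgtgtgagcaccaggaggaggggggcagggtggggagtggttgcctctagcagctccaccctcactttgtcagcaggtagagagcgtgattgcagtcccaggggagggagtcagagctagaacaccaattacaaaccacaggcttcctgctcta
The DKK1 window held 2 matches, CTTTGAA beginning 95 bases and CTTTGTT beginning 76 bases before the start. The RNF43 window above, the other RNF43 window and both TNFRSF19 windows held none of these letters. Among all 35116 windows of the table, 12.0% held at least 1 match and 1.21% held at least 2. A match describes letters and was not tested for binding.

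AXIN2, a scaffold of the destruction complex and the most widely used reporter gene of the pathway (chromosome 17, 63524681 to 63557766, by the deposited positions, for which the table names no genome build), was slightly lower on average. Its level was 607, 621 and 504 RPM in control replicates 4, 5 and 6 and 475, 479.5 and 525 RPM in the knockdown replicates of the same numbers. The groups overlapped, since control replicate 6 lay below knockdown replicate 6. The means were 578 ± 63.8 and 493 ± 27.7 RPM, and AXIN2 fell by 0.22 on the log2 scale (SE 0.0835, limma adjusted p = 0.0336). The call was lost when control replicate 4 or 5, or knockdown replicate 4 or 5, was left out (limma adjusted p = 0.127, 0.167, 0.113 and 0.121), while without control replicate 6 the change was -0.32. AXIN2 had about 9762 to 17364 reads in each library.

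NKD1, the naked cuticle homologue that binds dishevelled and restrains signalling (chromosome 16, 50582241 to 50670648), went the other way. Control replicates had 244, 257 and 222 RPM and knockdown replicates 269.9, 283 and 319.6 RPM, in the order 4, 5 and 6. Every knockdown sample was above every control sample. NKD1 rose by 0.27 on the log2 scale, from 241 ± 17.5 to 291 ± 25.7 RPM (SE 0.0798, limma adjusted p = 0.00797). Without control replicate 6 the change was 0.21, and without knockdown replicate 6 it was 0.20 and no longer passed (limma adjusted p = 0.0597). Transcripts on the other strand overlap NKD1, RNF43, ZNRF3 and LGR5. Since no source says whether counting used strand, the reads of these genes cannot be told apart from those of the antisense partners.

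NOTUM, a secreted deacylase that removes the palmitoleate group Wnt ligands need to bind Frizzled (chromosome 17, 79910388 to 79919717), rose. Its level was 73.4, 61.6 and 44.9 RPM in control replicates 4, 5 and 6 and 89.0, 84.3 and 94.5 in the knockdown replicates. The groups did not overlap, and the control samples were spread more widely than the knockdown samples. The means were 59.9 ± 14.4 and 89.3 ± 5.09 RPM, and NOTUM rose by 0.60 on the log2 scale (SE 0.113, limma adjusted p = 0.000134). Without control replicate 6, the lowest sample, the rise was 0.41 and still passed. NOTUM and TNFRSF19 had rises of nearly the same size, 0.60 and 0.59, and nearly the same ratio of means, and without control replicate 6 that of TNFRSF19 was the larger at 0.45.

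RNF43 and ZNRF3 are paralogous transmembrane ubiquitin ligases that remove Frizzled receptors from the cell surface. RNF43 (chromosome 17, 56429861 to 56494957) had 187, 185 and 158 RPM in the control replicates and 236, 243 and 254 in the knockdown replicates. Each knockdown sample was above each control sample, and RNF43 rose by 0.47 on the log2 scale (SE 0.0778, limma adjusted p = 3.28e-05), from 177 ± 16.1 to 244 ± 9.34 RPM, and by 0.39 without control replicate 6. ZNRF3 (chromosome 22, 29279580 to 29453476) had 108, 114 and 101 RPM in the control and 112, 116 and 126 in the knockdown, and these groups overlapped. Its log2 fold change of 0.13 (SE 0.0769) did not pass (limma adjusted p = 0.183), but it passed when libraries were scaled without mitochondrial genes (0.18, limma adjusted p = 0.00712) and under quantile normalization (0.22, limma adjusted p = 0.00187), with a range of adjusted p from 0.00187 to 0.491 over all alternatives. Without control replicate 6 its value was 0.08.

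The paralogs were also compared within each library, where the scaling of libraries cancels. Since RPM takes no account of gene length, only the change of such a ratio between groups is read. The ratio of RNF43 to ZNRF3 was 1.73, 1.63 and 1.57 in control replicates 4, 5 and 6 and 2.11, 2.09 and 2.02 in the knockdown replicates. RNF43 was therefore higher relative to ZNRF3 in every knockdown sample, by 0.34 on the log2 scale. The exact two-sided permutation p was 0.1, the smallest possible here, and 0.133 after Benjamini-Hochberg adjustment over 4 such pairs. The pairs were chosen after the values were seen.

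DKK1 and DKK4 are secreted dickkopf proteins that block signalling by binding the LRP5 and LRP6 co-receptors, and they moved in opposite directions. DKK1 (chromosome 10, 54074056 to 54077803) had 7.24, 8.63 and 11.4 RPM in control replicates 4, 5 and 6 and 3.51, 3.29 and 3.13 in the knockdown replicates. The groups were well apart, and the control samples spread widely. DKK1 fell by 1.43 on the log2 scale, from 9.10 ± 2.13 to 3.31 ± 0.191 RPM, which is 36.4% of the control mean (SE 0.158, limma adjusted p = 1.00e-07). This was the largest change of the 9 tested genes, on about 67 to 269 reads per sample. It ranked 88 from the lowest log2 fold change among all tested genes, whether or not they passed. Leaving out each sample in turn gave -1.59 to -1.26, the last of these without control replicate 6.

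DKK4 (chromosome 8, 42231586 to 42234751) had 14.2, 12.8 and 11 RPM in the control replicates and 17.6, 17.8 and 17.8 in the knockdown replicates. The knockdown samples lay close together and above all control samples. DKK4 rose by 0.49 on the log2 scale, from 12.7 ± 1.58 to 17.8 ± 0.156 RPM (SE 0.107, limma adjusted p = 0.000613), and by 0.40 without control replicate 6. The ratio of DKK4 to DKK1 was 1.96, 1.48 and 0.967 in the control replicates and 5.0, 5.42 and 5.70 in the knockdown replicates. The ratio differed by 1.93 on the log2 scale with no overlap, and by 1.66 without control replicate 6 (exact two-sided permutation p = 0.1 with all samples, adjusted 0.133 over the 4 pairs).

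**Figure D1:**
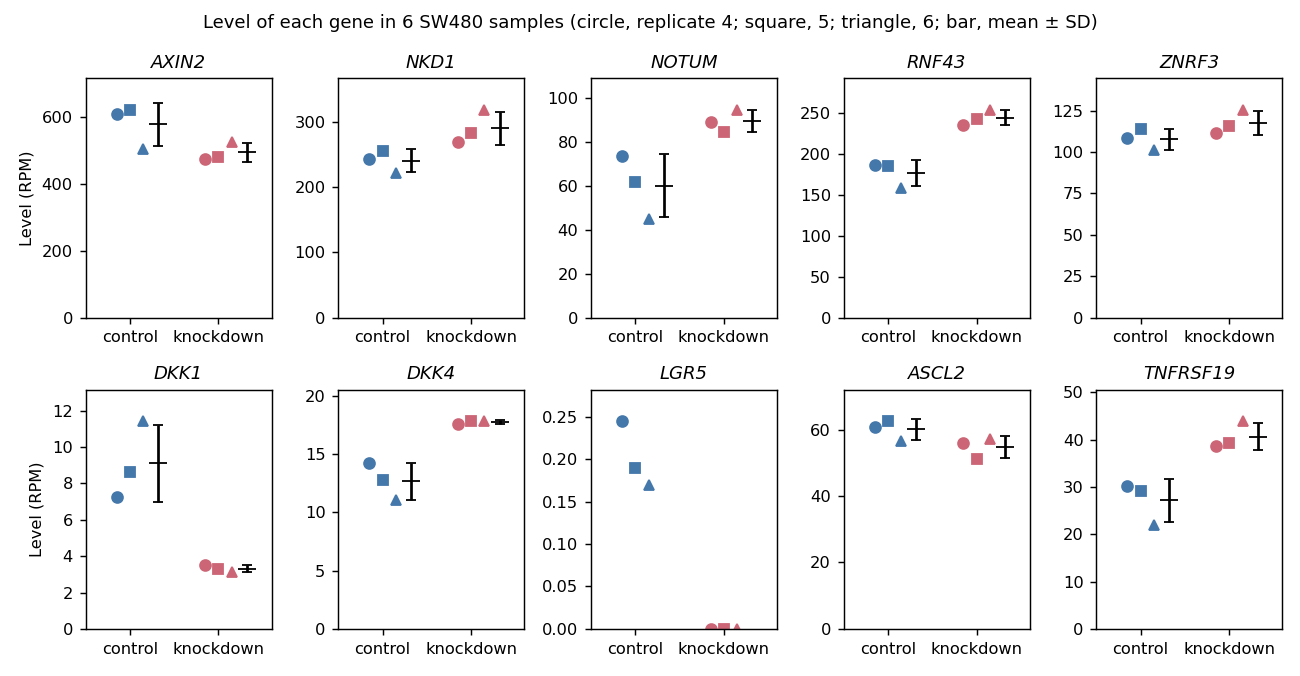
Level in RPM (vertical axes from 0, a separate scale per gene) of the 10 genes in 3 control (blue) and 3 knockdown (red) samples, with bars for the mean ± SD except for LGR5. NKD1, NOTUM, RNF43, DKK4 and TNFRSF19 are higher in every knockdown sample, DKK1 and LGR5 are lower in every one, and AXIN2, ZNRF3 and ASCL2 overlap.

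LGR5, the R-spondin receptor that marks crypt base stem cells (chromosome 12, 71833550 to 71980091), was near the limit of detection and was not tested. Control replicates 4, 5 and 6 had 0.245, 0.190 and 0.170 RPM, which is 7, 4 and 4 reads. All 3 knockdown samples were listed at 0. A count of 0 allows up to 3 reads, or 0.115 to 0.147 RPM in these libraries, so the control values lay only slightly above what 0 reads can hide. At this depth no fold is given. TSPAN8, which overlaps LGR5 on the other strand, had about 8 to 14 reads per sample. Whether any of these reads were shared with LGR5 was not tested.

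ASCL2, a basic helix-loop-helix factor that controls crypt stem cell identity (chromosome 11, 2289725 to 2292183), had 60.8, 62.6 and 56.7 RPM in the control replicates and 56.1, 51.1 and 57.1 in the knockdown replicates. The groups overlapped, and the log2 fold change of -0.13 (SE 0.0803) did not pass (limma adjusted p = 0.189). It passed under median of ratios and TMM scaling (-0.14 and -0.15, limma adjusted p = 0.0471 and 0.0373), within a range of 0.0373 to 0.526 over all alternatives. Without control replicate 6 its value was -0.17. TNFRSF19, a TNF receptor family member expressed in crypt stem cells (chromosome 13, 24144509 to 24250233), had 30.3, 29.2 and 21.96 RPM in the control replicates and 38.6, 39.3 and 43.95 in the knockdown replicates, with no overlap. TNFRSF19 rose by 0.59 on the log2 scale, from 27.1 ± 4.52 to 40.6 ± 2.90 RPM (SE 0.104, limma adjusted p = 6.00e-05), and by 0.45 without control replicate 6.

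**Figure D2:**
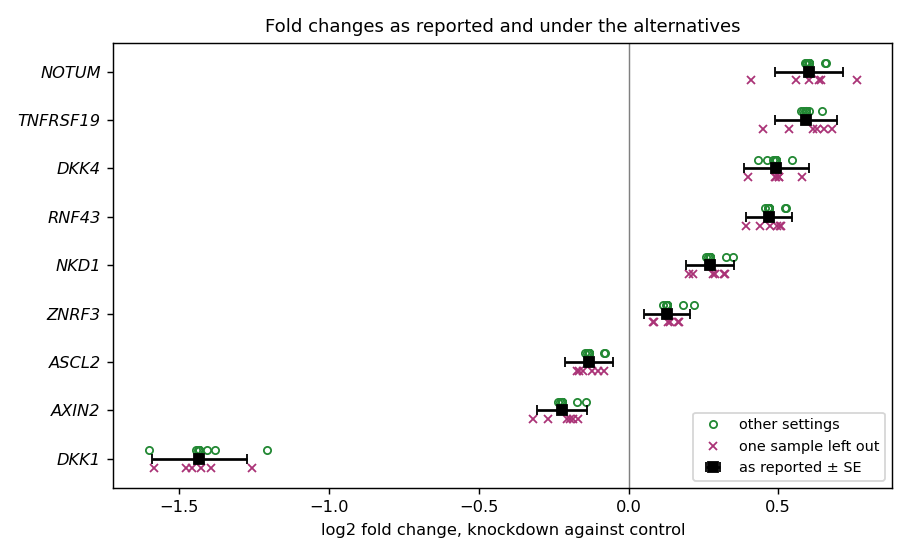
Log2 fold change of knockdown against control (horizontal axis) for the 9 tested genes, as reported with limma's SE (black), with 1 sample left out (crosses) and under the other settings (circles). No gene crosses 0 in any of the 17 alternatives, and DKK1 lies apart from the others at -1.43.

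Groups did not overlap for 6 of the 9 tested genes, 5 higher and 1 lower in the knockdown, where 51.0% of all tested genes had no overlap (26.5% higher and 24.6% lower). The median absolute log2 fold change over all genes that changed was 0.46. NOTUM ranked 1940 from the highest log2 fold change among all tested genes, whether or not they passed.

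The log2 ratio of each of 8 genes to AXIN2 within the same library does not depend on the scaling, and it was compared between groups after the values had been seen. Since AXIN2 itself was lower, a gene with no change has a ratio that is higher by 0.22, which was also the median over the 15495 other tested genes. The ratio of NOTUM to AXIN2 was higher in the knockdown by 0.83, that of TNFRSF19 by 0.82, that of DKK4 by 0.72 and that of RNF43 by 0.69. For NKD1 the difference was 0.50 and for ZNRF3 0.35, and for DKK1 it was -1.21. In these 7 ratios the groups did not overlap, and each had an exact two-sided permutation p of 0.1, or 0.114 after Benjamini-Hochberg adjustment over 8 ratios. Of these 7 ratios 6 were higher and 1 was lower, where 54.1% of the other tested genes had a ratio to AXIN2 with no overlap (47.3% higher and 6.82% lower). The ratio of ASCL2 to AXIN2 overlapped between groups (difference 0.09, exact permutation p = 0.3). Control replicate 6 stood apart in the ratio of DKK1 to AXIN2, at -5.46 against -6.39 and -6.17, and without it the difference was -0.94. Without it the difference for NOTUM was 0.73 and that for RNF43 0.71. The 8 ratios share their denominator, so they are not independent of each other.

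**Figure D3:**
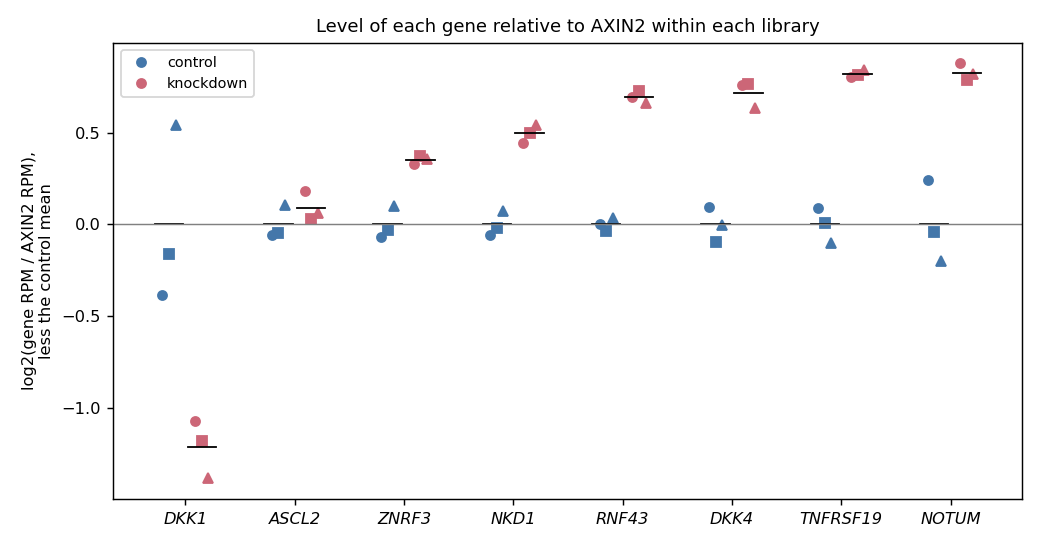
Log2 ratio of each gene's RPM to that of AXIN2 in the same library, less the control mean (vertical axis), for 3 control (blue) and 3 knockdown (red) samples, with lines at the means. The knockdown samples lie above the control samples for 6 genes, below them for DKK1, and among them for ASCL2.

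The rest of the pathway was described by 8 lists of genes fixed with earlier results known. Of their 120 genes 91 were tested, 21 rose and 26 fell, and their median log2 fold change was -0.02. Over all tested genes 22.6% rose and 19.2% fell, with a median of 0.00. Upstream of the receptors, 7 of 14 tested ligand and secretion genes rose and 2 fell, with a median of 0.52. Without control replicate 5 or knockdown replicate 5, 1 of them fell. WNT10A rose by 0.96 on the log2 scale, from 18.2 ± 1.74 to 35.2 ± 1.81 RPM, and WNT6 by 0.61. PORCN, the acyltransferase that adds the lipid NOTUM removes, rose by 0.67. WNT5A, best known for beta-catenin-independent signalling, fell by 0.67, from 127 ± 8.85 to 79.7 ± 3.62 RPM. Adjusted p-values by limma for these 4 genes were 1.71e-08, 6.28e-06, 6.38e-05 and 1.94e-07.

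Of 16 receptor genes 2 rose and 3 fell, beside 22.6% and 19.2% of all tested genes. FZD4 was at 0.81, FZD7 at -0.43, ROR1, a receptor for WNT5A, at -0.62, and the pseudokinase co-receptor PTK7 at 0.24. The call for PTK7 was lost without control replicate 6 (0.10, limma adjusted p = 0.235) and without knockdown replicate 5 or 6 (0.101 and 0.0964). It was also lost with no filter on low values, with no variance trend and with the replicate block (limma adjusted p = 0.108, 0.191 and 0.0606). Both tested R-spondin receptors rose. LGR6, a paralog of LGR5, rose by 1.33 on the log2 scale, from 15.3 ± 1.69 to 38.3 ± 3.94 RPM (SE 0.101, limma adjusted p = 1.91e-10). LGR4 rose by 0.34, a call that was lost when any sample but control replicate 5 was left out (limma adjusted p of 0.0518 to 0.150 in those fits). The LGR4 call was also lost under quantile normalization (0.18, limma adjusted p = 0.172), with no filter, with no variance trend and with the replicate block (0.0663, 0.0639 and 0.0638).

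Among other antagonists, secreted or at the surface except for NKD2, 7 genes were tested. Of these 0 rose and 3 fell by limma, beside 22.6% and 19.2% of all tested genes. At an unadjusted limma p under 0.05, 1 was higher and 3 were lower. Those that fell were SFRP5, a secreted Frizzled-related protein, by 0.38 on the log2 scale, DKK3, a divergent dickkopf, by 0.34 and NKD2 by 0.31. The call of SFRP5 was lost without knockdown replicate 5 (-0.32, limma adjusted p = 0.0508), that of NKD2 without control replicate 5 or knockdown replicate 4 (-0.24 in both, 0.0609 and 0.0617), and that of DKK3 without control replicate 4 or 5 or knockdown replicate 4 or 6 (-0.31 to -0.30, 0.0594 to 0.0650). With no variance trend the calls of NKD2 and DKK3 were lost as well (limma adjusted p = 0.0536 and 0.0505). Without control replicate 4 or 5, 2 members of this list rose, and without control replicate 5 or knockdown replicate 4, 1 fell. Under the 11 other settings, which keep all samples, 0 to 2 members of this list rose and 1 to 3 fell. The ratio of NKD1 to NKD2 was 6.61, 6.21 and 6.30 in control replicates 4, 5 and 6 and 9.70, 9.12 and 9.77 in the knockdown replicates (exact two-sided permutation p = 0.1, adjusted 0.133 over the 4 pairs). The ratio of AXIN2 to AXIN1, the constitutive axin, overlapped between groups, with a log2 difference of -0.14 (exact permutation p = 0.3, adjusted 0.30).

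In the destruction complex and dishevelled list 3 of 15 tested genes fell and 2 rose, beside 19.2% and 22.6% of all tested genes. CSNK1A1, the casein kinase that primes beta-catenin, fell by 0.43 on the log2 scale, GSK3B by 0.41 and APC by 0.33, while CTNNB1, beta-catenin itself, rose by 0.39, from 504 ± 33.2 to 659 ± 36.7 RPM (limma adjusted p = 0.000278). Among TCF/LEF factors and cofactors 2 of 14 rose and 5 fell, beside 22.6% and 19.2% of all tested genes. In each of these 2 lists, 1 gene rose without control replicate 6 or knockdown replicate 5 or 6. The Groucho co-repressors TLE1 and TLE4 had log2 fold changes of -2.82 and -0.83 and LEF1, an activating partner of beta-catenin and a Wnt target, of -0.74, while TCF7L1, mostly a repressor, had 0.80.

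Other Wnt targets changed in both directions. Of 19 tested, 5 rose and 8 fell, beside 22.6% and 19.2% of all tested genes, with a list median of -0.17. SOX4, a transcription factor of progenitor cells, fell by 1.22 on the log2 scale, BMP4 by 0.79 and LEF1 as above, while EPHB3, a guidance receptor of the crypt, rose by 1.05. Without control replicate 4 or 5, or knockdown replicate 5, 5 members of this list fell. Among 9 tested crypt base genes 1 rose and 4 fell, beside the same shares of all tested genes. Those that fell include CDK6 at -0.67, BMI1 at -0.41 and the cotransporter SLC12A2 at -0.36. Without control replicate 5, 2 crypt base genes rose. LRIG1, a feedback inhibitor of ERBB receptors, rose by 0.24, but not without control replicate 6 or knockdown replicate 5 or 6 (limma adjusted p = 0.0913, 0.0843 and 0.118), nor with no filter, no variance trend or the replicate block (0.0579, 0.104 and 0.0755).

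**Figure D4:**
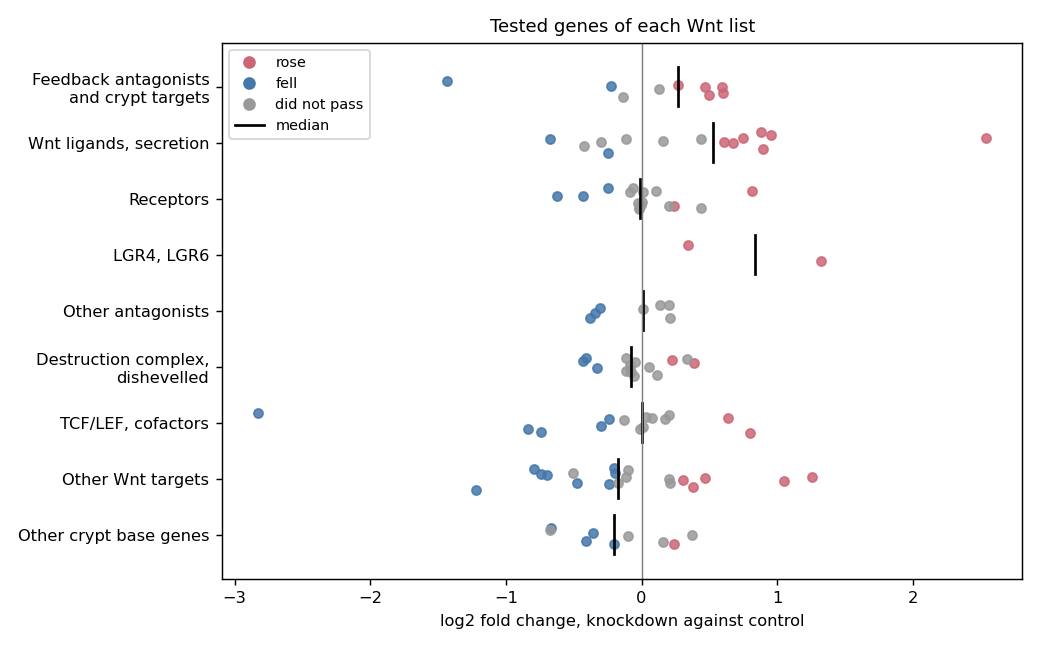
Log2 fold change (horizontal axis) of every tested gene in the 10-gene set and the 8 other Wnt lists, coloured by whether it rose, fell or did not pass, with the list's median as a vertical line. Ligands have a median of 0.52, the feedback and crypt genes 0.27, and the other Wnt targets -0.17.

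The genes beside each of the 10 on its chromosome give the local background. For each gene the 10 nearest tested genes on either side were taken. The stretch they cover differed widely, from 0.370 Mb around NOTUM to 10.9 Mb around DKK1. The neighbours of AXIN2, NKD1, RNF43 and ZNRF3 include transcripts that overlap the gene itself. The median log2 fold change of the 20 neighbours was 0.14 for NOTUM and 0.12 for RNF43, and 7 and 8 of the 20 rose. Of all tested genes 22.6% rose and 19.2% fell. NOTUM and RNF43 themselves had values of 0.60 and 0.47. The neighbours' medians were 0.04 for NKD1, -0.05 for TNFRSF19 and -0.13 for DKK4, genes whose own values were 0.27, 0.59 and 0.49. Around NKD1 2 neighbours rose, around TNFRSF19 6 rose and 3 fell, and around DKK4 6 rose and 6 fell. AXIN2 and ASCL2 lay below 0 while their neighbours' medians were 0.22 and 0.42, with 7 rises and 2 falls around each. For ZNRF3, at 0.13, 1 neighbour rose and 6 fell, with a median of -0.15. Around DKK1, at -1.43, 7 neighbours fell and 2 rose, with a median of -0.20. Around LGR5, which was not tested, 3 neighbours fell and the median was -0.10. The part of chromosome position in these results was not tested.

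**Figure D5:**
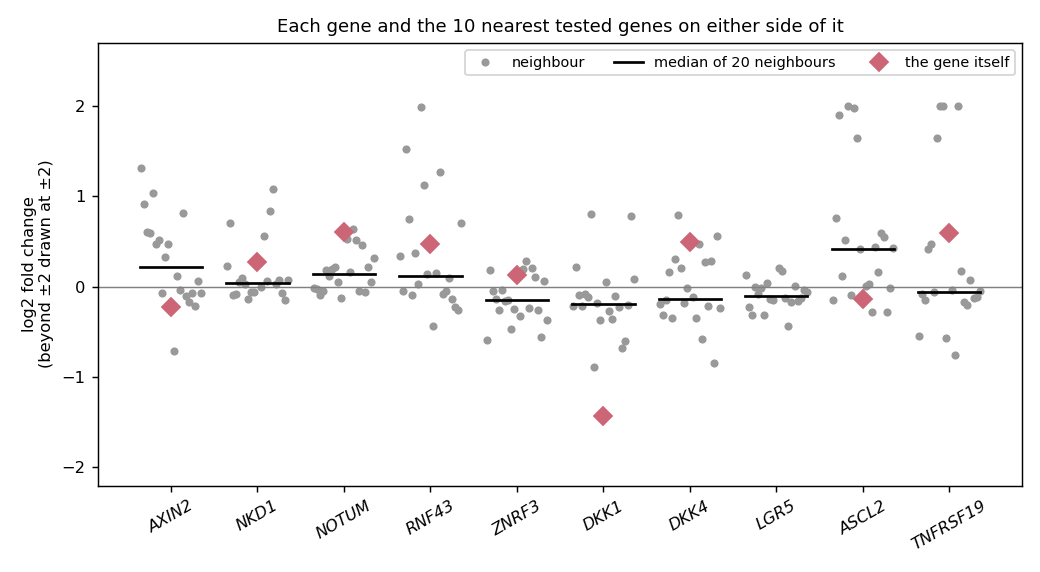
Log2 fold change (vertical axis) of each gene (red diamond), of the 10 nearest tested genes on either side in their order along the chromosome (grey points) and the median of these 20 (black line). Values beyond 2 in either direction are drawn at 2, and LGR5 has no diamond because it was not tested. DKK1, DKK4 and TNFRSF19 lie far from their neighbours' medians, and NOTUM and RNF43 lie above medians that are themselves above 0.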

How the data were processed

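RNA from 6 SW480 samples was sequenced as strand-specific libraries, per the labels' protocols. The authors deposited 1 table of log2 values, read from its values as log2 of RPM plus an offset of 0.0001. The submitters' processing notes name Partek and Bowtie, without versions, and hg38. The table's positions are not those of GRCh38, since its largest end on chromosome 1 is 249214146 against 248937043 for the last gene in GENCODE 29. The sources used here do not say how reads were counted, whether strand was used or what was filtered. RPM is not divided by gene length, so levels are not compared between genes.

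Each of 22258 symbols was used once. Low values were only partly whole multiples of 1 read (75.3% to 76.5% within 0.02), so no count model was run. Genes whose mean reached 0.688 RPM were tested with limma (R 4.3.3, limma 3.58.1, lmFit and eBayes with a trend, 3 against 3 samples, no covariates) and adjusted over all 15496. Single values and ratios were compared with an exact two-sided permutation test (scipy 1.17.1).

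The genes, the lists and the tests were chosen with earlier results of these data known. The naming rule takes the 10 genes, ALDH1B1, up to 4 changed members per list with the smallest adjusted p and a mean of at least 3.44 RPM, and the most abundant markers. KRT20, CDH1, VIL1, EPCAM, HNF4A, CDX2, CD68, AXIN1 and transcripts overlapping the 10 genes were named after their values were seen. Fibroblast, leukocyte and endothelial markers, mitochondrial mRNAs and 4 nuclear long non-coding RNAs served as checks, and 0 of those 4 changed by limma (0 at an unadjusted p under 0.05).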

Additional observations from a re-analysis of the deposited data

How the results depend on the processing

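All 9 tested genes kept their direction under all 17 alternatives, and the calls for NOTUM, RNF43, DKK1, DKK4, TNFRSF19 and ALDH1B1 also held under each of them. The number that rose was 4 to 6. The number that fell was 3 under median of ratios and TMM scaling, where ASCL2 passed. It went from 2 to 1 with no filter on low values, with no variance trend and with the replicate block, each time because AXIN2 was lost (limma adjusted p = 0.0776, 0.146 and 0.0966, range 0.00101 to 0.167 over all alternatives). Leaving out each replicate gave 1 to 2 falls. NKD1 was also lost without the variance trend (limma adjusted p = 0.0761).

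Deviations from group means of same-numbered samples correlated at -0.05, -0.06 and -0.13 over genes. These values cannot show whether same-numbered samples were handled together, which the labels do not say. With the replicate block 3179 genes rose and 2302 fell, against 3508 and 2972 without it. Scaling moved the balance over the whole table, with 4540 rises and 2871 falls when scaled without mitochondrial genes and 3858 and 3891 under TMM scaling. Without control replicate 6 there were 3057 and 3738. The median log2 fold change of all genes lay between -0.047 and 0.054. Among the 10 genes, LGR5 was the one too low for a test at this depth.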

Other observations

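Several of the genes overlap transcripts on the opposite strand, and the labels do not say that counting used strand. BZRAP1-AS1, antisense to RNF43, rose by 1.13 on the log2 scale, from 3.74 ± 0.30 to 8.18 ± 0.315 RPM (SD over 3 samples a group, limma adjusted p = 5.29e-07). RP11-401P9.6, antisense to NKD1, rose by 0.56 (limma adjusted p = 0.00271), from 4.998 to 7.38 RPM. ZNRF3-AS1 had a log2 fold change of -0.33 that did not pass (limma adjusted p = 0.531). CTD-2535L24.2, a locus on the same strand as AXIN2 that overlaps it, fell by 0.71 on the log2 scale, from 3.26 ± 0.242 to 1.996 ± 0.121 RPM (limma adjusted p = 0.00407). SUPT4H1 overlaps RNF43 on the same strand, with means of 52.2 ± 4.60 RPM in the control and 57.4 ± 0.196 in the knockdown. Its log2 fold change of 0.14 did not pass (limma adjusted p = 0.174). Whether reads were shared between overlapping transcripts was not tested.

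Knockdown replicate 6 was the highest of the knockdown samples for 8 of the 9 tested genes, the exception being DKK1, where it was the lowest. Control replicate 6 was the lowest of the control samples for the same number of genes and the highest for DKK1. Over all tested genes the median log2 deviation from the group's other samples was 0.07 for knockdown replicate 6 and -0.14 for control replicate 6. Over the 9 genes the medians were 0.13 and -0.23.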
